A study of Mus musculus with 24 samples.

Results

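The transcriptome of the mouse eye was compared between the first time point in darkness and the last time point in light. This comparison used 8 of the 24 eye libraries of the series, 4 dark eyes against 4 lit eyes. The members were chosen by the light cycle and the hour of collection alone. The dark eyes were SC eyes at 18 h and LW eyes at 22 h after midnight, and the lit eyes were SC eyes at 14 h and LW eyes at 18 h after midnight, with 2 eyes in each group.

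Male CBA/N mice were moved at 10 weeks of age and kept for 4 weeks in a simulated season. SC animals, the winter-like group, had 8 h of light and 16 h of darkness at 10 °C, and LW animals, the summer-like group, had 16 h of light and 8 h of darkness at 27 °C. Whole frozen eyes were taken every 4 h over 6 times of day, so each library holds retina, pigment epithelium, lens, cornea, iris, sclera and attached muscle together. Whether both eyes of a group are from 1 mouse or from separate mice is not labelled, and the p-values therefore cover eye-to-eye spread, which may be technical. In each season the dark eyes were collected 4 h after the lit eyes. Darkness and the later hour therefore cannot be told apart within this contrast, and in a whole eye fewer cells of a type cannot be told apart from less RNA per cell.

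In darkness the cyclic nucleotide-gated channels of rods and cones are open, and the photoreceptors carry a standing cation current that costs ATP and release glutamate steadily. Light closes these channels. The vertebrate retina makes much of its ATP by glycolysis even in the presence of oxygen. Retinal dopamine is released in light and acts through D4 receptors on photoreceptors, where it lowers cyclic AMP.

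The dark libraries held 24404982 to 27510363 expected counts over protein-coding genes and the lit libraries held 19543401 to 25996302. Scaling factors (TMM, a trimmed mean of ratios) lay between 0.982 and 1.01. Levels are given below as scaled counts, which are expected counts brought to the mean library of 24230698 counts. They are not divided by gene length, so levels of different genes are not compared with each other. Retinal markers were present at high level in all 8 eyes, including the rod gene Nr2e3 at 4960 to 8232 scaled counts.

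Of 17398 genes tested, 104 rose in the dark eyes (0.598% of genes tested) and 50 fell (0.287%), 154 in all (0.885%), with season as a covariate in limma and a Benjamini-Hochberg adjusted p under 0.05. All 154 moved the same way in each season with no overlap between the dark and the lit eyes of that season. Over all genes tested, 1793 (10.3%) were separated the same way in both seasons, and 1150 were separated in opposite ways. At an unadjusted p under 0.05, 981 genes were higher and 832 were lower. The steps were modest. The median log2 difference, dark minus lit, was 0.39 for the genes that rose and −0.39 for the genes that fell, against −0.0042 over all genes, and 4 genes rose and 1 fell by at least 1 on the log2 scale. All 4 dark eyes lay above all 4 lit eyes for 100 of the 104 genes that rose, against 554 of all genes tested (3.18%). All 4 dark eyes lay below all 4 lit eyes for 44 of the 50 genes that fell, against 439 of all genes tested (2.52%). The called genes were chosen by a test on these same eyes. Their separation, within each season and across seasons, is therefore partly fixed by that choice, and these counts are a description. The same holds where the separation of a called gene is given below.

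Tested within a season, the SC step alone called 59 genes (0.339%) and the LW step alone called 148 genes (0.851%). Called in both with the same sign were 22 genes. Of the 59 SC genes, 38 were lower in darkness, and 29 had the same sign in LW. Of the 148 LW genes, 107 were higher in darkness, and 126 had the same sign in SC. The medians of the 104 genes that rose were 0.33 in SC and 0.43 in LW, and those of the 50 genes that fell were −0.35 in SC and −0.42 in LW. The LW step was the larger for 78 of the 104 genes and for 31 of the 50 genes. Of the 154, 0 passed the test of the difference between seasons (limma interaction, adjusted p under 0.05). The fit that called them counts a season difference of the step as residual spread. It therefore selects against genes with such a difference, and the 0 is not evidence of equal steps. In the same interaction test 23 of the 154 had an unadjusted p under 0.05, beside 1482 of all genes tested (8.52%). Single eyes carried weight in the count. The total of 154 was 83 without SC 14 h replicate 2, 72 without SC 18 h replicate 2, 74 without LW 18 h replicate 1, 96 without LW 22 h replicate 1 and 77 without LW 22 h replicate 2. In all 8 fits that left out 1 eye, 56 of the genes (36 higher and 20 lower) were called, and all 154 kept their sign.

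**Figure D1:**
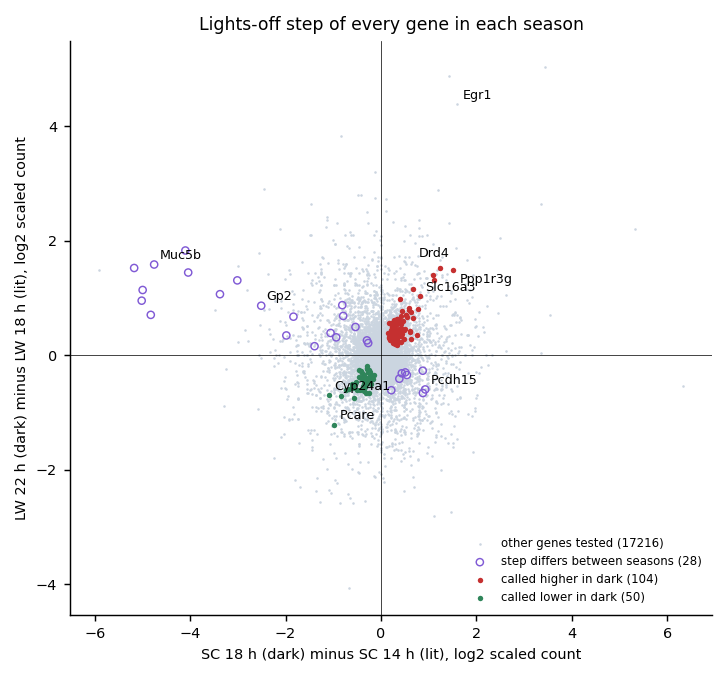
Lights-off step of every gene tested, as the difference in log2 scaled count between SC 18 h (dark) and SC 14 h (lit) on the horizontal axis and between LW 22 h (dark) and LW 18 h (lit) on the vertical axis. The 104 genes that rose (red) lie in the upper right and the 50 that fell (green) in the lower left, while the 28 genes whose step differed between seasons (open purple) reach −5.18 in SC.

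The gene for the D4 dopamine receptor, Drd4 (gene ID 13491, chromosome 7, 141291974 to 141296464 in GRCm38), had the smallest adjusted p of all genes. Drd4 stood at 4418 and 4982 scaled counts in the SC 18 h eyes and 4721 and 4799 in the LW 22 h eyes, against 1950 and 2032 in the SC 14 h eyes and 1713 and 1592 in the LW 18 h eyes. Every dark eye stood far above every lit eye. The means were 4730 ± 235 in dark eyes and 1822 ± 204 in lit eyes (SD, n = 4 each), a log2 difference of 1.38 (SE 0.06, 95% interval 1.24 to 1.52, limma adjusted p = 3.63e-08). The step was 1.24 in SC and 1.53 in LW. Of the 4 dopamine receptor genes that could be tested, 2 rose, beside 0.598% of all genes tested that rose. The second, Drd2, which includes the autoreceptor of dopamine neurons, had 918, 970, 1012 and 1010 scaled counts in dark eyes and 832, 685, 703 and 680 in lit eyes. Its groups did not overlap (log2 difference 0.43, adjusted p = 0.0102), but the call was lost in 3 of the 8 fits without 1 eye. Drd1 did not pass, with 553 to 633 scaled counts in dark eyes and 446 to 591 in lit eyes.

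Dopamine synthesis and handling gave 0 calls among 11 genes, beside 0.885% of all genes tested that were called. Th, the rate-limiting enzyme of dopamine synthesis, had 63.5, 81.4, 109 and 88.5 scaled counts in dark eyes and 58.4, 67.6, 80.3 and 101 in lit eyes, and these ranges overlapped (log2 difference 0.16, 95% interval −0.19 to 0.51, limma adjusted p = 0.813). Among 14 genes of photoreceptor cyclic AMP signalling, Drd4 was the one that was called, and the list median was 0.01. Of the 7 melatonin genes tested, 0 were called, with an unadjusted p under 0.05 for 0 of them.

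Pcare, which encodes an actin regulator of the photoreceptor cilium needed for outer segment discs, fell furthest of the 50 genes (gene ID 225004, chromosome 17, 71743555 to 71752905). Its level was 4785 and 4764 scaled counts in the SC 18 h eyes and 4158 and 3736 in the LW 22 h eyes, against 9148 and 9668 in the SC 14 h eyes and 9438 and 8851 in the LW 18 h eyes. The 2 groups were far apart in both seasons. Dark eyes averaged 4361 ± 508 and lit eyes 9276 ± 355 (SD, n = 4 each), a log2 difference of −1.10 (SE 0.06, 95% interval −1.22 to −0.97, limma adjusted p = 5.80e-08). The step was −0.98 in SC and −1.21 in LW.

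Among 25 genes of rod phototransduction, 3 fell and 0 rose, beside 0.287% of all genes tested that fell. The list median was −0.01, close to the −0.0042 of all genes. The 3 were Nr2e3, Guca1a and Guca1b. Nr2e3, a nuclear receptor that holds rods in the rod fate, had 5568 and 6848 scaled counts in SC 18 h eyes and 5097 and 4960 in LW 22 h eyes, against 8232 and 7563 in SC 14 h eyes and 8069 and 7350 in LW 18 h eyes (log2 difference −0.48, limma adjusted p = 0.00842). Guca1a and Guca1b encode the calcium sensors that switch on retinal guanylate cyclase when calcium falls, and they are neighbours on chromosome 17. Guca1b had 21148, 22735, 18466 and 17091 scaled counts in dark eyes and 26612, 24022, 24395 and 21902 in lit eyes, and Guca1a had 8691, 9663, 7531 and 7112 in dark eyes and 11141, 10537, 9999 and 8976 in lit eyes. The highest dark eye of each, an SC eye, stood above the lowest lit eye, an LW eye, so the groups overlapped across seasons though not within them. Their log2 differences were −0.29 for Guca1b (adjusted p = 0.0224, called in 3 of 8 fits without 1 eye) and −0.31 for Guca1a (adjusted p = 0.0118, called in 6 of 8). The list held 3 calls in all 8 eyes and 1 without LW 18 h replicate 1 or without LW 22 h replicate 2. Among 13 genes of cone phototransduction, 0 were called.

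Other genes of photoreceptor structure fell as well. Fscn2, an actin-bundling fascin of photoreceptors, had 1515, 1660, 1340 and 1176 scaled counts in dark eyes and 2280, 2011, 2011 and 1809 in lit eyes, with no overlap (log2 difference −0.52, limma adjusted p = 0.00118). Others were chosen for their known role after their values had been seen. Lca5, the ciliary protein lebercilin, fell by 0.29 on the log2 scale (adjusted p = 0.0426) but was called in 0 of 8 fits without 1 eye. Kcnv2, a potassium channel subunit of photoreceptors, had 7166, 7091, 7442 and 7602 scaled counts in dark eyes and 7877, 8908, 8911 and 9409 in lit eyes (log2 difference −0.26, adjusted p = 0.0182). Its groups did not overlap, but it was called in 2 of 8 fits without 1 eye.

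The promoters of Pcare and Guca1a are shown because each holds TAATCC, the core bound by the photoreceptor factor Crx. The windows run from 250 bases before to 50 bases after a RefSeq transcript start in GRCm38.p6, 5′ to 3′ on the gene's strand, with the motif in capitals on either strand. Pcare is at chr17:71752856-71753155 on the minus strand and Guca1a at chr17:47400557-47400856 on the minus strand, where the Guca1a window lies at a transcript start inside the annotated gene.
Pcare: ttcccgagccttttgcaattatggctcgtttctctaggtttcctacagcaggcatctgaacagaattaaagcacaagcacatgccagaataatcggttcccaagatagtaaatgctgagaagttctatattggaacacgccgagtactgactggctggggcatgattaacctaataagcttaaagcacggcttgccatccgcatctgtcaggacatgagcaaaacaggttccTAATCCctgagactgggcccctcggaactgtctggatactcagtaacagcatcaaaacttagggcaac
Guca1a: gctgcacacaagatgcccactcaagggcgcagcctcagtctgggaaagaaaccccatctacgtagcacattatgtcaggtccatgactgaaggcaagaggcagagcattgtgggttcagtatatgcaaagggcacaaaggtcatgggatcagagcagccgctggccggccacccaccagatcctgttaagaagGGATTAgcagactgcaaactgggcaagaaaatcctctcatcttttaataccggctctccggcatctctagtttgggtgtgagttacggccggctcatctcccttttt
The motif, searched on both strands, lay in 4 of 31 promoters of genes that fell (12.9%; Ankrd33b, Fam149a, Guca1a and Pcare), 4 of 79 of genes that rose (5.06%) and 5.94% of the 13597 tested genes with a promoter. A match is a description of these letters only.

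**Figure D2:**
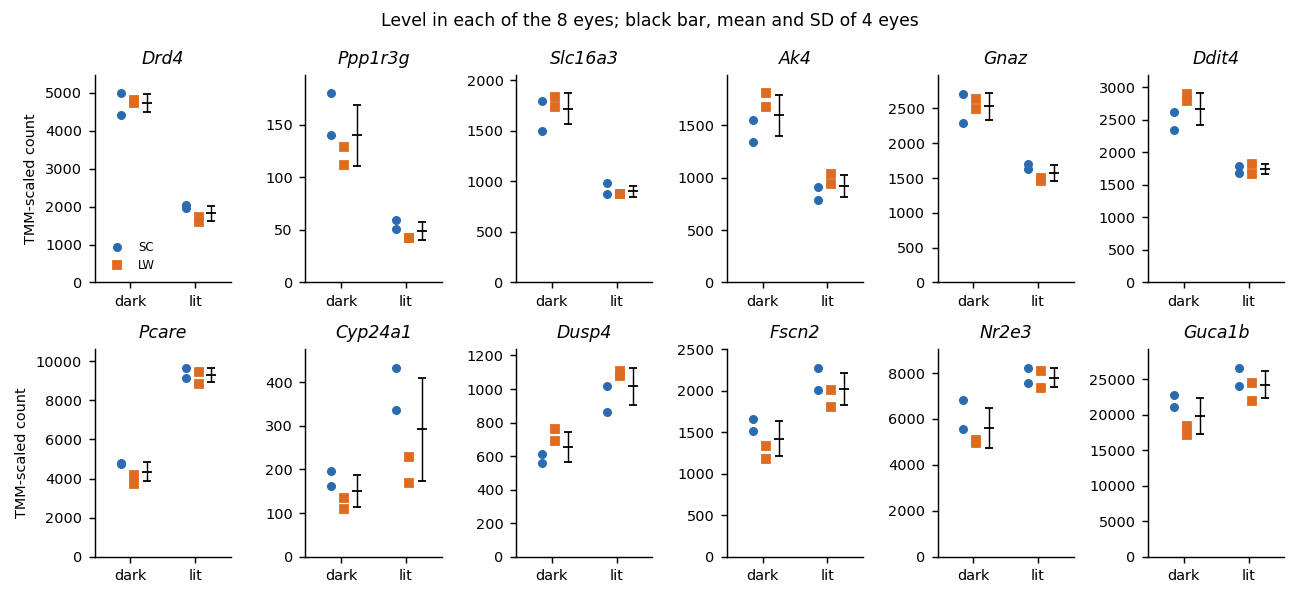
Scaled counts of 12 genes in each of the 8 eyes, with dark eyes left and lit eyes right in each panel, SC eyes as blue circles, LW eyes as orange squares, and a black bar for the mean and SD of 4 eyes. Drd4 averaged 4730 in dark eyes and 1822 in lit eyes, Pcare averaged 4361 in dark eyes and 9276 in lit eyes, and Cyp24a1 shows lit LW eyes within reach of the dark SC eyes.

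Of 20 genes of glycolysis, 10 rose and 0 fell, beside 0.598% of all genes tested that rose. In this list 17 had a positive difference, and the median was 0.24 against −0.0042 over all genes. The summed level of the list was 380200 to 420800 scaled counts in dark eyes and 329200 to 363600 in lit eyes, without overlap. The called genes belonged to some steps of the pathway, from glucose uptake (Slc2a1, 0.32), hexokinase (Hk2) and phosphofructokinase (Pfkl and Pfkp) to lower steps (Tpi1, Pgk1, Pgam1 and Eno2). Lactate formation (Ldha) and lactate export (Slc16a3) were also among them. Pfkp and Pgam1 were called in 3 of 8 fits without 1 eye, Eno2 in 4 and Tpi1 in 6, and the others in all 8. The count fell to 6 without SC 14 h replicate 2 and to 6 without SC 18 h replicate 2, whose medians were 0.22 and 0.21. Gpi1, Aldoa, Aldoc and Gapdh, of other steps, were not called, and neither were Hk1 and Eno1.

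Slc16a3, the lactate exporter MCT4, moved most in the list. Slc16a3 had 1496 and 1793 scaled counts in SC 18 h eyes and 1741 and 1840 in LW 22 h eyes, against 979 and 878 in SC 14 h eyes and 871 and 874 in LW 18 h eyes. The lowest dark eye was well above the highest lit eye, and the means were 1717 ± 153 in dark eyes and 901 ± 52.5 in lit eyes (SD, n = 4 each, log2 difference 0.93, SE 0.07, limma adjusted p = 9.38e-06). Hk2, the inducible hexokinase, had 11773, 12321, 12440 and 11854 scaled counts in dark eyes and 9730, 8730, 8518 and 7339 in lit eyes (log2 difference 0.50, adjusted p = 0.00118). Its 4 dark eyes spanned a narrower range than its 4 lit eyes. Pfkl, a phosphofructokinase subunit, had 9373, 11030, 11602 and 11035 scaled counts in dark eyes and 7829, 7288, 7980 and 7506 in lit eyes (log2 difference 0.49, adjusted p = 5.17e-04). Ldha, the lactate dehydrogenase subunit that favours lactate, had 20197, 22513, 23754 and 23523 scaled counts in dark eyes and 17933, 17612, 16839 and 16282 in lit eyes (log2 difference 0.39, adjusted p = 0.00235). For each of these genes every dark eye exceeded every lit eye, and each was called in all 8 fits without 1 eye.

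**Figure D3:**
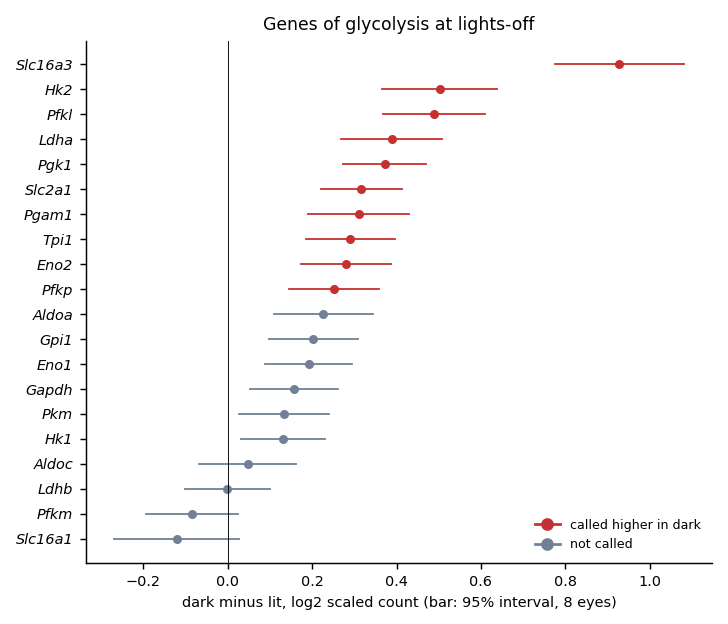
Lights-off step of the 20 glycolysis genes, as the difference in log2 scaled count, dark minus lit, with 95% intervals from the fit over 8 eyes. Slc16a3 lies furthest to the right at 0.93, the 10 called genes (red) are all above 0, and the 3 genes with a negative difference were not called.

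Many genes known as targets of hypoxia-inducible factor were higher too. This list of 37 genes was put together after values had been seen, and 11 of its genes are also in the glycolysis list, so its count is a description. Of the 37, 19 rose and 0 fell, with a median of 0.25, and outside glycolysis 12 of 26 rose. Over all genes tested 0.598% rose. The 19 called became 12 without SC 18 h replicate 2. The transcript of Hif1a itself, whose protein is controlled mainly by its degradation, did not pass (log2 difference −0.03, limma adjusted p = 0.935).

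The members outside glycolysis have varied roles. Ak4, an adenylate kinase of the mitochondrial matrix, had 1345, 1553, 1678 and 1806 scaled counts in dark eyes and 785, 915, 1039 and 944 in lit eyes (log2 difference 0.79, limma adjusted p = 4.01e-05). Ddit4, which restrains the growth kinase mTORC1, had 2345, 2626, 2791 and 2900 scaled counts in dark eyes and 1789, 1683, 1670 and 1829 in lit eyes (log2 difference 0.61, adjusted p = 1.24e-04). P4ha1, a collagen prolyl hydroxylase, had 2484, 2559, 2861 and 2927 scaled counts in dark eyes and 1875, 1890, 2168 and 2120 in lit eyes (log2 difference 0.43, adjusted p = 3.12e-04). None of these 3 genes had a dark eye within the range of the lit eyes. Other members were chosen after their values had been seen. Egln1, the oxygen-sensing prolyl hydroxylase that marks the factor for destruction, had 3265, 3799, 3719 and 4403 scaled counts in dark eyes and 2685, 2621, 2466 and 2538 in lit eyes (log2 difference 0.55, adjusted p = 0.00279). Kdm3a, a histone demethylase, had 2852, 2801, 2871 and 2879 scaled counts in dark eyes and 1892, 2156, 2026 and 2220 in lit eyes (log2 difference 0.46, adjusted p = 5.17e-04). Its dark eyes were nearly level while the lit eyes varied more. Bnip3, a receptor for the removal of mitochondria, rose by 0.45, and the angiogenic factor Vegfa rose by 0.25 (adjusted p = 0.0319) but was called in 2 of 8 fits without 1 eye.

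The promoters of Slc16a3, Ldha and Pgk1 are shown because each holds ACGTG, the core that hypoxia-inducible factor binds. They are given as for the photoreceptor genes, at chr11:120948817-120949116, chr7:46845554-46845853 and chrX:106186850-106187149, all on the plus strand, with the motif in capitals on either strand. The Slc16a3 window lies at a transcript start inside the annotated gene. Where the motif reads on both strands at the same place, CACGTG stands in capitals.
Slc16a3: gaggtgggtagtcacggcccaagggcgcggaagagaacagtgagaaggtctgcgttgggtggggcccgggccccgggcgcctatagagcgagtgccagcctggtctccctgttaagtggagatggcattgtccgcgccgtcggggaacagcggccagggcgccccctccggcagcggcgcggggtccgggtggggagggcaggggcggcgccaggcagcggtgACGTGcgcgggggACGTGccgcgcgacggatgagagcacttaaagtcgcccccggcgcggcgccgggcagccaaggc
Ldha: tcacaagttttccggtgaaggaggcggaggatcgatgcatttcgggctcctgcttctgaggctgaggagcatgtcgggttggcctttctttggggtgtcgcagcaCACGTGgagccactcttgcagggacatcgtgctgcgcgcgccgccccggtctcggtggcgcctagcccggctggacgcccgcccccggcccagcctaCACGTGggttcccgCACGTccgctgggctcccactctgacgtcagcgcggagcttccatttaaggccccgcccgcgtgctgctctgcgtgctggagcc
Pgk1: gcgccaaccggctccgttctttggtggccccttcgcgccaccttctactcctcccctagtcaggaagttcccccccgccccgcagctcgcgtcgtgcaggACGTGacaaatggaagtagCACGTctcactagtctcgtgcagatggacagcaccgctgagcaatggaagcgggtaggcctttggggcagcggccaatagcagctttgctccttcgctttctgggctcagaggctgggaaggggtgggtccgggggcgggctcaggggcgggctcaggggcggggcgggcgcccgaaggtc
The Slc16a3 window holds 2 matches, the Ldha window 5 and the Pgk1 window 2. Of the 19 called genes of the hypoxia-inducible list, 13 hold ACGTG in this window (68.4%), as do 6 of the 10 called glycolysis genes (60%), 30 of the 79 genes that rose and have a promoter here (38%), 8 of the 31 that fell (25.8%) and 23.5% of the tested genes. The list was assembled from genes known to be bound by this factor, so the share is a description and no test was made of it. The cyclic AMP response element TGACGTCA, which shares the letters ACGT with that core but cannot contain it, lay in 6 of the 79 promoters of genes that rose (7.59%; Cbx8, Dusp1, Dusp8, Ldha, Pnpla3 and Ppp1r15a), 0 of the 31 of genes that fell and 2.84% of tested genes.

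Other large steps belonged to genes of no listed pathway. Ppp1r3g, which brings protein phosphatase 1 to glycogen, had 140 and 180 scaled counts in SC 18 h eyes and 129 and 112 in LW 22 h eyes, against 59.3 and 51.2 in SC 14 h eyes and 42.0 and 41.9 in LW 18 h eyes. The dark eyes averaged 140 ± 28.9 and the lit eyes 48.6 ± 8.35 (SD, n = 4 each), the largest log2 difference of the called genes named here at 1.50 (SE 0.16, limma adjusted p = 1.98e-04). Gnaz, an inhibitory G protein alpha subunit, had 2285, 2712, 2632 and 2486 scaled counts in dark eyes and 1704, 1634, 1501 and 1452 in lit eyes (log2 difference 0.68, adjusted p = 8.41e-05). Every dark eye was above every lit eye for Ppp1r3g and for Gnaz. Ptprcap and Bcl2l10 also rose by more than 1 on the log2 scale, from low levels. Ptprcap, a lymphocyte phosphatase-associated protein, had 54.6, 57.1, 82.2 and 71.2 scaled counts in dark eyes and 37.7, 17.4, 25.2 and 32.1 in lit eyes (adjusted p = 0.0223). Bcl2l10, a relative of Bcl2, had 38.7, 33.7, 33.0 and 51.0 in dark eyes and 16, 16.4, 18.7 and 13.6 in lit eyes (adjusted p = 0.0343). The groups did not overlap, but Ptprcap was called in 3 of 8 fits without 1 eye and Bcl2l10 in 0 of 8.

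Among genes that fell, Cyp24a1, which breaks down active vitamin D, had 163 and 196 scaled counts in SC 18 h eyes and 110 and 134 in LW 22 h eyes, against 433 and 336 in SC 14 h eyes and 168 and 229 in LW 18 h eyes (log2 difference −0.89, limma adjusted p = 0.00659). The dark and lit eyes of each season were apart, while the lower LW lit eye was within the range of the SC dark eyes. Ahrr, the repressor of the aryl hydrocarbon receptor, had 134, 90.8, 94.7 and 97.2 scaled counts in dark eyes and 195, 204, 177 and 142 in lit eyes, and was called in 5 of 8 fits without 1 eye. Bmp4, a secreted growth factor, had 437, 461, 422 and 410 scaled counts in dark eyes and 545, 578, 648 and 670 in lit eyes (log2 difference −0.49, adjusted p = 0.00857).

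Genes that answer growth factor signalling through ERK divided. In a list of 13 feedback genes, added after values had been seen, 2 rose and 2 fell. Over all genes tested 0.885% were called. Dusp4, a nuclear phosphatase of MAP kinases, had 561 and 612 scaled counts in SC 18 h eyes and 762 and 689 in LW 22 h eyes, against 861 and 1019 in SC 14 h eyes and 1079 and 1108 in LW 18 h eyes (log2 difference −0.63, limma adjusted p = 4.46e-04). The highest dark eye was below the lowest lit eye. Spry4, a Sprouty inhibitor of the pathway, fell by 0.55 on the log2 scale (adjusted p = 0.0278, called in 3 of 8 fits without 1 eye). Spry2, another Sprouty gene, rose by 0.35, and Dusp5, a phosphatase specific for ERK, rose by 0.43 and was called in 2 of 8 fits without 1 eye. The list median was −0.07.

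The immediate early genes, which neurons switch on within minutes of stimulation, gave 4 higher and 0 lower of 28. Over all genes tested 0.598% rose. In the list 21 were positive, and the median was 0.24. The 4 called members were Fosl2, Ier2, Ier3 and Dusp1. Fosl2, a partner of Jun in the AP-1 factor, had 2969, 2865, 3044 and 3205 scaled counts in dark eyes and 2132, 2360, 2354 and 2426 in lit eyes (log2 difference 0.38, limma adjusted p = 0.00118). Ier2 had 678 and 806 scaled counts in SC 18 h eyes and 1049 and 1067 in LW 22 h eyes, against 582 and 534 in SC 14 h eyes and 492 and 582 in LW 18 h eyes (log2 difference 0.69, adjusted p = 0.0143, called in 4 of 8 fits without 1 eye). Dark eyes were above lit eyes throughout, with the LW dark eyes the highest. The list count fell to 2 without SC 18 h replicate 2.

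Egr1, Fos and Nr4a1 had the largest differences in that list and did not pass, with wide spread between dark eyes. They were chosen after their values had been seen. Other members that did not pass had smaller or negative differences, among them Arc (0.18), Npas4 (−0.13) and Egr3 (−0.94). Egr1, a zinc finger factor of activated neurons, had 1768 and 4598 scaled counts in SC 18 h eyes and 11312 and 15595 in LW 22 h eyes, against 907 and 978 in SC 14 h eyes and 715 and 562 in LW 18 h eyes. Fos had 830 and 1401 in SC 18 h eyes and 2299 and 2321 in LW 22 h eyes, against 643 and 543 in SC 14 h eyes and 564 and 528 in LW 18 h eyes. All 4 dark eyes lay above all 4 lit eyes for Egr1 and Fos, yet the limma adjusted p was 0.238 for Egr1 (log2 difference 2.99, SE 0.70) and 0.184 for Fos (log2 difference 1.47, called in 1 of 8 fits without 1 eye). Nr4a1, an orphan nuclear receptor, had 1288, 1784, 3761 and 4773 scaled counts in dark eyes and 879, 859, 962 and 850 in lit eyes (log2 difference 1.51, adjusted p = 0.215). Dark and lit eyes were also compared in a limma fit over all 24 libraries, which estimates the spread from every group. That fit gives each group its own mean, so a season difference of the step is not counted as residual spread. The fit over 8 eyes does count it, and the steps of Egr1, Fos and Nr4a1 were larger in LW than in SC. With 24 libraries the adjusted p was 1.97e-04 for Egr1, 1.55e-04 for Fos and 3.22e-08 for Nr4a1. In that fit 11 immediate early genes were called higher and 1 lower. Which of these differences between the fits changed the calls was not tested.

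Among 17 CREB target genes 2 rose, Sik1 and Dusp1, beside 0.598% of all genes tested that rose. Sik1, a kinase that restrains CREB coactivators, had 1224, 1270, 1706 and 1576 scaled counts in dark eyes and 965, 1019, 1070 and 1085 in lit eyes (log2 difference 0.47, limma adjusted p = 0.00223). The 2 LW dark eyes were the highest and no dark eye was within the lit range. Among 20 glucocorticoid response genes and metallothioneins 2 rose, Ddit4 and Dusp1. Among 24 heat shock chaperones 1 rose, Hsp90aa1, by 0.32 (adjusted p = 0.0102), and 21 were positive with a median of 0.09. Of these, 10 were higher at an unadjusted p under 0.05, beside 981 of the 17398 genes tested. The list median was 0.03 in SC and 0.18 in LW. The summed list was 195100 and 206400 in SC 18 h eyes against 199500 and 193100 in SC 14 h eyes, which overlapped. It was 239100 and 231200 in LW 22 h eyes against 204000 and 200600 in LW 18 h eyes. Among 17 genes of autophagy and lysosome 1 rose, the autophagy kinase Ulk1, which was called in 2 of 8 fits without 1 eye.

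Of 24 core clock genes, 2 rose, Rorb among them, and 1 fell (Dbp), beside 0.885% of all genes tested that were called. At an unadjusted p under 0.05, 6 were higher and 6 were lower, and the list median was 0.05. Dbp, a clock output factor, had 3621 and 3655 scaled counts in SC 18 h eyes and 3124 and 2992 in LW 22 h eyes, against 4877 and 4407 in SC 14 h eyes and 4388 and 4193 in LW 18 h eyes (log2 difference −0.42, limma adjusted p = 7.95e-04). All dark eyes were below all lit eyes. Rorb, a nuclear receptor of the retina, had 5522, 5685, 5577 and 6502 scaled counts in dark eyes and 4782, 4610, 5230 and 5085 in lit eyes (log2 difference 0.24, adjusted p = 0.0420). Its dark and lit eyes did not overlap, but it was called in 1 of 8 fits without 1 eye. Just 1 call was left without SC 14 h replicate 2, without SC 18 h replicate 2, without LW 22 h replicate 2, or without either LW 18 h eye.

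Of 16 ON bipolar genes, 3 rose and 0 fell, beside 0.598% of all genes tested that rose, and the median was 0.13. ON bipolar cells are the retinal interneurons that receive the dark glutamate of photoreceptors through a sign-inverting receptor. Vsx1, a homeobox factor of bipolar subtypes, had 711, 751, 711 and 702 scaled counts in dark eyes and 563, 516, 512 and 532 in lit eyes (log2 difference 0.44, limma adjusted p = 0.00468). Every dark eye was above every lit eye. Cabp5, a calcium-binding protein, rose by 0.27 and was called in 1 of 8 fits without 1 eye. Just 1 call was left without SC 14 h replicate 2, without SC 18 h replicate 2, without LW 18 h replicate 1, or without either LW 22 h eye.

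Among 22 genes of cholesterol synthesis and uptake, 2 fell and 0 rose, beside 0.287% of all genes tested that fell. In the list 2 were positive, and the median was −0.12. Sqle, squalene epoxidase, had 1987, 1991, 1796 and 1850 scaled counts in dark eyes and 2240, 2530, 2142 and 2209 in lit eyes (log2 difference −0.26, limma adjusted p = 0.0277). Mvd, which makes isopentenyl diphosphate, had 475, 474, 457 and 454 scaled counts in dark eyes and 650, 660, 585 and 501 in lit eyes (log2 difference −0.36, adjusted p = 0.0482). Neither gene's groups overlapped, and each was called in 1 of 8 fits without 1 eye. Cpt1a and Acadm, enzymes of fatty acid oxidation chosen after their values had been seen, fell by 0.26 (adjusted p = 0.0131) and 0.28 (adjusted p = 0.00532) on the log2 scale, and Cpt1a was called in 4 of 8 fits without 1 eye.

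The remaining lists had 0 calls, which for lists of this size lies near the 0.885% called over all genes. They were 84 nuclear genes of oxidative phosphorylation (median −0.03), 76 cytosolic ribosomal proteins (median −0.03), 15 visual cycle genes, 14 genes of outer segment phagocytosis, 14 of pigment epithelium, 14 of amacrine cells, 12 of ganglion cells, 7 of horizontal cells, 14 of Müller glia, 16 of the photoreceptor synapse, 16 neuropeptide genes, 5 nonvisual opsins, 13 NRF2 targets and 2 cold-inducible genes. Outside the retina, 16 lens crystallins, 15 lens fibre genes, 25 genes of corneal and conjunctival epithelium, 15 of sclera and stroma, 22 of muscle, 12 of iris and ciliary body, 16 of macrophages, 10 of endothelium, 3 of blood, 8 of liver and 8 of skin had 0 calls. The sclera list had 4 genes lower at an unadjusted p under 0.05 and a median of −0.13, and the muscle list had a median of −0.09 with 3 of 22 positive.

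The step differed between seasons for 28 genes (interaction in limma, 0.161% of genes tested), with the LW step above the SC step for 20 and below it for 8. Of the 28, 9 belong to a list of 16 genes of mucous and glandular epithelium that was added after values had been seen. Muc5b, a secreted gel-forming mucin, had 6.95 and 14.0 scaled counts in SC 18 h eyes and 179 and 313 in LW 22 h eyes, against 284 and 305 in SC 14 h eyes and 88.8 and 69.1 in LW 18 h eyes. The SC dark eyes were the lowest and the SC lit eyes among the highest (step −4.76 in SC and 1.59 in LW, adjusted p = 1.08e-04). Over all 24 eyes Muc5b spanned 6.95 to 331. Ltf, the tear and mucus protein lactoferrin, had 331 and 325 scaled counts in SC 18 h eyes and 629 and 717 in LW 22 h eyes, against 589 and 551 in SC 14 h eyes and 366 and 474 in LW 18 h eyes. The summed mucous list was 20880 and 16480 in SC 18 h eyes and 16680 and 19290 in LW 22 h eyes, against 21300 and 26610 in SC 14 h eyes and 14740 and 16370 in LW 18 h eyes, with a median step of −1.76 in SC and 0.87 in LW. Median steps of muscle genes (−0.33 in SC and 0.12 in LW) and of sclera genes (−0.28 in SC and 0.01 in LW) were likewise negative in SC and above 0 in LW. How much adnexal tissue each eye carried, and its part in these differences, was not tested.

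Of the 8 genes with the SC step above the LW step, Pcdh15 and Adgrv1 are described here, chosen after their values had been seen. Pcdh15, a cadherin of photoreceptor and hair cell links, had 3419 and 3346 scaled counts in SC 18 h eyes and 2006 and 2515 in LW 22 h eyes, against 1697 and 1865 in SC 14 h eyes and 3094 and 3721 in LW 18 h eyes. Every SC dark eye exceeded the SC lit eyes and every LW dark eye lay below the LW lit eyes (step 0.93 in SC and −0.60 in LW, limma interaction adjusted p = 0.00233). Adgrv1, a large adhesion receptor of the photoreceptor periciliary membrane, had 3589 and 3507 scaled counts in SC 18 h eyes and 2560 and 2061 in LW 22 h eyes, against 2408 and 2584 in SC 14 h eyes and 2867 and 2782 in LW 18 h eyes (adjusted p = 0.0131). Whrn, its partner in the same complex, also chosen after its values had been seen, was not among the 28. It rose in both seasons, with 4691, 5262, 5315 and 5070 scaled counts in dark eyes and 4348, 3904, 3417 and 3392 in lit eyes (log2 difference 0.44, adjusted p = 0.00862).

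The steps of the called genes were next set against neighbouring 4 h intervals in which the light did not change. These intervals share libraries with the contrast that chose the genes, so they are a description. The 104 genes that rose had a median of 0.0121 between SC 10 h and SC 14 h and of 0.0226 between LW 14 h and LW 18 h, both within light. Across the change to darkness the medians were 0.329 in SC and 0.429 in LW. In the next 4 h of darkness they were −0.00368 in SC and −0.137 in LW. The 50 genes that fell had medians of −0.0634 and 0.00177 in the lit intervals, −0.352 and −0.415 across the change, and −0.131 and −0.0526 in the next dark interval, SC first in each pair.

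Over the 6 times of day, most of the genes that rose had their highest mean, and most that fell their lowest, in the dark hours. These times include the groups that chose the genes, so the counts are partly fixed by that choice and are a description. For genes that rose, the highest mean could not lie at SC 14 h or LW 18 h. For genes that fell, the lowest could not lie there. Likewise the lowest mean of genes that rose, and the highest of genes that fell, could not lie at SC 18 h or LW 22 h. The highest group mean of the 104 genes was at 18 h for 52 and at 22 h for 45 in SC, and at 22 h for 64 and at 2 h for 38 in LW. The lowest mean of the 50 genes was at 22 h for 31 and at 2 h for 10 in SC, and at 2 h for 30 and at 22 h for 18 in LW. The opposite extremes were less uniform. The lowest mean of the 104 genes in SC was at 10 h for 49 and at 14 h for 27, both in light, and at 6 h, still dark, for 24, and in LW it was in one of the 4 lit groups for all but 2. The highest mean of the 50 genes was at 10 h for 29, at 14 h for 16 and at 6 h for 4 in SC, and in a lit group for all 50 in LW. Drd4 averaged 6209, 4156, 2065, 1991, 4700 and 6528 scaled counts over the 6 times, from 2 h to 22 h, in SC and 5575, 2721, 1761, 1765, 1653 and 4760 in LW. At 18 h Drd4 was low in LW eyes, which were lit, and high in SC eyes, which were dark. These groups also differ in day length and temperature and were among those that chose the gene. What sets the difference was not tested. Pcare averaged 4970, 6605, 11888, 9408, 4775 and 4330 scaled counts in SC and 4446, 8283, 10784, 8338, 9144 and 3947 in LW. Its highest mean was at 10 h in each season.

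Egr1 did not hold its level through the night. Egr1 averaged 3183 scaled counts at 18 h and 1325 at 22 h in SC, and 13453 at 22 h and 4188 at 2 h in LW. Guca1b was lower still later in the night, with 21941 scaled counts at 18 h in SC, then 11642 (22 h), 12960 (2 h) and 15661 (6 h), and with 17778 at 22 h and 10691 at 2 h in LW. Slc16a3 averaged 1644 at 18 h and 1820 at 22 h in SC, and 1791 at 22 h and 1740 at 2 h in LW, and was at 685 to 922 in the lit LW groups.

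**Figure D4:**
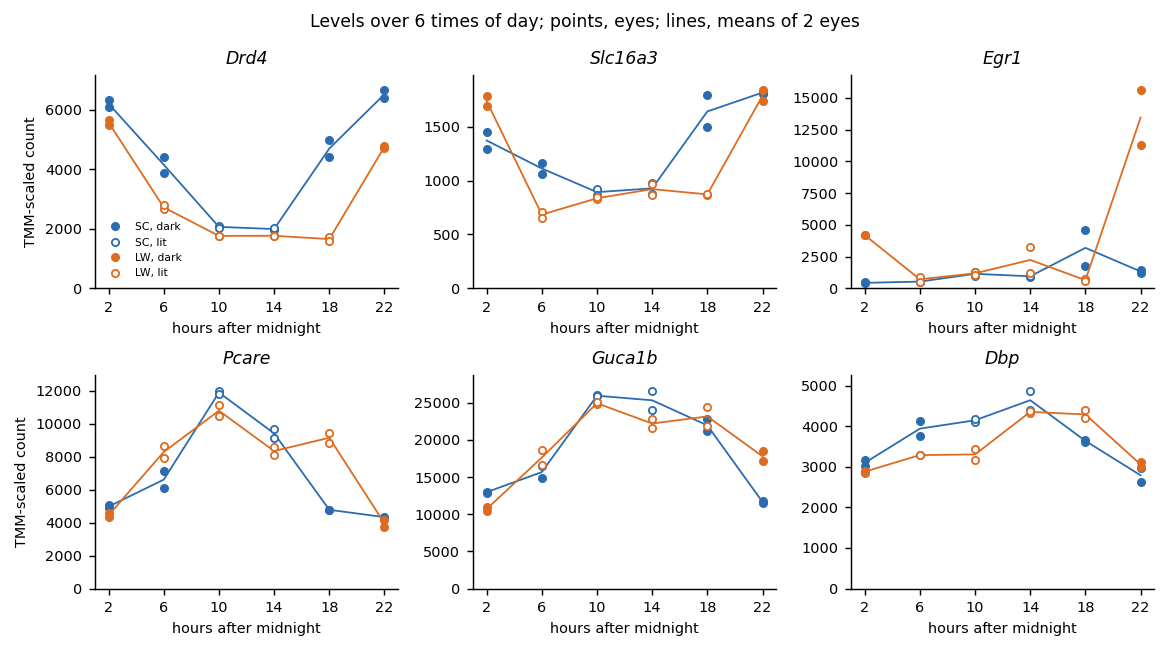
Scaled counts of 6 genes at the 6 times of day (hours after midnight), with filled points for eyes in darkness, open points for eyes in light, blue for SC, orange for LW, and lines through the means of 2 eyes. Every dark group mean is above every lit one for Drd4 and Slc16a3 and below every lit one for Pcare, Guca1b is lowest at 22 h in SC and 2 h in LW, and Egr1 peaks at 18 h in SC (mean 3183) and at 22 h in LW (mean 13453).

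The change to light was tested in libraries that the contrast above did not use, as SC 10 h against SC 6 h and LW 6 h against LW 2 h, lit minus dark, 4 eyes against 4. Of 17725 genes tested, 49 were called higher in the lit eyes (0.276%) and 47 lower (0.265%). Of the 104 genes that rose at lights-off, 22 were called lower at lights-on and 0 higher (21.2% of the 104 and 46.8% of the 47), 97 had a negative difference, and the median was −0.24. Of the 50 genes that fell at lights-off, 22 were called higher at lights-on and 0 lower (44% of the 50 and 44.9% of the 49), 48 had a positive difference, and the median was 0.36. Over all genes 49.9% were negative and the median was 0.0003. Of the lit and dark eyes in this second contrast, SC 10 h replicate 2 and SC 6 h replicate 2 held liver transcripts, with 49.4 and 209 scaled counts of the liver apolipoprotein gene Apoa1 against at most 12.5 in any other library. Without them the calls at lights-on numbered 31 higher and 28 lower, and the shared calls were 17 among the 104 genes and 17 among the 50.

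Drd4 fell at lights-on (log2 difference −1.02, limma adjusted p = 1.39e-06) and Pcare rose (0.87, adjusted p = 7.93e-06). Guca1b rose by 0.72 (adjusted p = 1.77e-05) and Guca1a by 0.66 (adjusted p = 1.76e-04). The sizes of the steps at lights-on and at lights-off were not tested against each other. Among the genes that were higher in the dark, Ppp1r3g fell by 1.31 (adjusted p = 0.0463), Pgk1 by 0.41 and Rorb by 0.52. Of the 10 glycolysis genes called at lights-off, 5 were called lower at lights-on (Hk2, Pfkl, Tpi1, Pgk1 and Pgam1). Slc16a3 did not pass there (−0.83, adjusted p = 0.208), and neither did Cyp24a1 (0.08, adjusted p = 0.913) or Sik1 (0.18, adjusted p = 0.412).

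**Figure D5:**
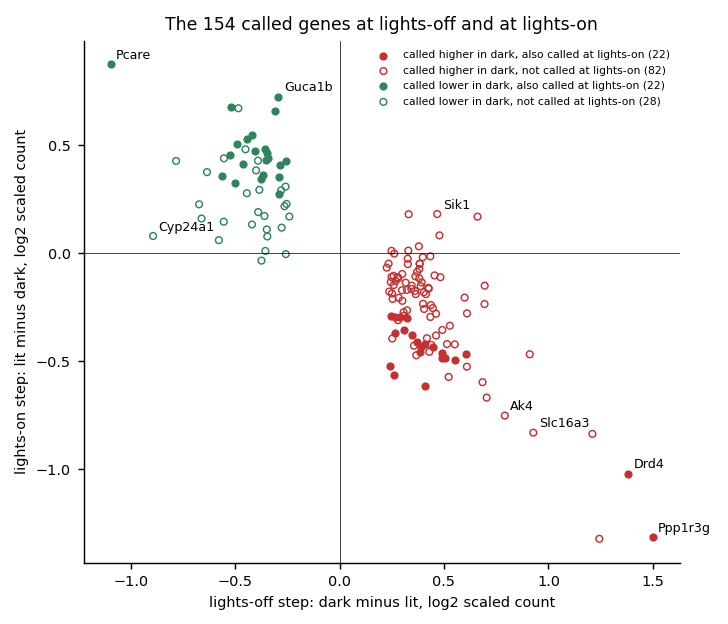
The 154 called genes, with the lights-off step (dark minus lit, log2 scaled count) on the horizontal axis and the lights-on step (lit minus dark, from other eyes) on the vertical axis. Filled points are the 22 of 104 genes higher in the dark (red) and 22 of 50 lower in the dark (green) that were also called in the opposite direction at lights-on, and 97 of the 104 red points lie below 0.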

How the data were processed

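Total RNA of whole eyes was made into strand-specific paired-end libraries with 100-base reads. The authors mapped filtered reads to GRCm38.p6 with HISAT2 2.0.4 and deposited RSEM expected counts per protein-coding gene, not scaled, 1 column per eye (RSEM version not given in the sources used here). The deposited table lists no 0, and its cells without a number, 9.36% to 10.3% of each library used, were read as 0. Of 19018 gene IDs, 18891 matched RefSeq names for GRCm38.p6. No mitochondrial gene is in the table. Light states follow the light schedule of each season.

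A count model had been planned, but because of the cells without a number the values were analysed on a log scale. Counts were scaled by TMM to the mean library, genes reaching 1 scaled count in 2 or more of the 8 libraries were kept, and log2(scaled count + 1) was fitted with limma 3.58.1 (trend and robust options) in R 4.3.3, with season as a covariate. Log2 differences are on this scale, which understates changes of low genes. A gene was called at a Benjamini-Hochberg adjusted p under 0.05 over all genes tested, and a called gene was alike if the dark and lit eyes of each season were separated in the same direction. The interaction and season steps came from a fit with 4 group means. Replicates of a group differed by more than sampling noise (chi-square per gene 6.16 to 8.99). Same-numbered eyes did not deviate together in both seasons (correlation −0.269 in SC and 0.202 in LW over 14023 genes), so numbers were not taken as pairs.

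Genes were named by rule: among alike genes averaging 1 CPM or more, the 15 largest and 15 smallest differences, the 10 smallest p, called members of the clock, immediate early, melatonin, dopamine and photoreceptor cyclic AMP lists, up to 4 members of each other list, the 5 smallest interaction p, and Th, Drd1 and Drd4. Genes outside the rule were named with their values known, and not all of them are marked so where they appear. The comparison and the gene lists were chosen with earlier results of these data known. The 3 lists of hypoxia-inducible, ERK feedback and mucous genes were added after values were seen. The steps were also run on simulated data with the same spread setting for every gene and no season effect. That run is therefore no evidence for the calls made here. Alternatives were another scaling, filter, pseudocount and weighting, a fit of 24 libraries, replicate blocks and leaving out each eye. Figures were drawn with matplotlib 3.10.9. Values of some genes that met the rule are not reported here.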

Additional observations from a re-analysis of the deposited data

Results flagged for a closer look

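The difference of the lights-off step between seasons passed the threshold for 28 genes (limma interaction, adjusted p under 0.05), and 27 of them are given here as the LW step minus the SC step on the log2 scale. Of the 28, 9 are in the list of 16 mucous and glandular genes, and all 9 had the LW step above the SC step. Where the LW step was above the SC step the values were 6.70 for Tff1, 6.34 for Muc5b, 6.14 for Tmem213, 5.97 for Muc16, 5.93 for Ern2, 5.54 for Gm12873, 5.49 for Spdef, 4.45 for Kcnj16, 3.38 for Gp2, 2.51 for Cxcl17, 2.33 for Agr2, 1.69 for Fcgbp, 1.55 for Cyp4a12a, 1.48 for Ltf, 1.45 for Cyp26b1, 1.26 for Cd74, 1.03 for Muc1, 0.56 for Acta1 and 0.48 for Elf3. Each of these 19 had a negative step in SC and a positive step in LW.

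The 8 genes with the SC step above the LW step had values of −1.53 for Cdcp3, −1.52 for Pcdh15, −1.14 for Sesn3, −0.88 for Dnah9, −0.82 for Cerkl, −0.81 for Adgrv1, −0.79 for Fmn1 and −0.75 for Ryr3. Each had a positive step in SC and a negative step in LW. The SC steps rest on 2 eyes against 2, and with eyes left out 1 at a time the number of such genes was 13 to 44.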

How the results depend on the processing

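Counts were 104 genes higher and 50 lower, and the alternatives that moved them most were a fit of all 24 libraries (286 higher, 155 lower, 382 alike) and the crossed pairing (194 higher, 88 lower, 260 alike), which was chosen after seeing the data. With the replicate block the counts were 82 higher and 42 lower, and 115 of the 154 genes were shared. Among genes of the text, the calls that the block ended include Ier2, Spry4, Dusp5, Mvd, Rorb, Bcl2l10, Lca5, Cbx8 and Ppp1r15a. The SC step alone gave 59 genes (141 with 24 libraries) and the LW step alone 148 (394 with 24 libraries, 96 with no filter). At lights-on the 49 higher and 47 lower genes became 295 and 366 with 24 libraries, 27 and 12 with the replicate block, and 31 and 28 without the 2 libraries with liver transcripts. Leaving out each eye in turn gave 43 to 112 genes higher, 23 to 45 lower, 72 to 157 alike, 13 to 44 for the interaction, 24 to 102 for SC, 41 to 118 for LW, 27 to 54 higher at lights-on and 17 to 43 lower at lights-on. Differences that changed sign when an eye was left out, none of them called, included Apoh (−0.783 to 0.0730), Cryba1 (−0.107 to 0.00582), Crygc (−0.00104 to 0.132), Hba-a1 (−0.70 to 0.10), Opn4 (−0.11 to 0.25), Opn3 (−0.30 to 0.16), Ltf (−0.28 to 0.11) and Fcgbp (−0.22 to 0.24). Why they moved was not tested. The count models planned (DESeq2 among them) were not run. The fit had 2 eyes per group and 5 residual degrees of freedom.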
